A study of Mus musculus with 62 samples.

Results

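The mitochondrially encoded transcripts are the RNAs copied from the small circular genome that mitochondria carry. They were taken from the deposited expression table as every gene whose symbol starts with mt-, which gives 37 of 47643 genes: 13 protein-coding genes, 2 rRNAs and 22 tRNAs. Every one was followed through 62 libraries of white adipose tissue from female mice, each given in TPM, a transcript abundance corrected for length and scaled so that a library sums to 1000000.

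The study followed fat during cachexia, the wasting of fat and muscle that accompanies some cancers. Mice aged 2 months were given cachectic melanoma cells (the CAC arm), non-cachectic melanoma cells (the NCAC arm) or only a mock injection (the Con arm), and tissue was taken after 2, 4, 6 or 8 weeks. Each of the 12 groups held 5 libraries, except CAC at 8 weeks with 7. Arm and week come from the sample descriptions, because the treatment tag names cachectic melanoma cells for all samples, mock ones included. The series text gives athymic nude mice (NCI Ath/nude) and the strain tag gives C57BL6/J, a conflict that the sources used here do not settle. In a nude host T cells are largely missing. No fat depot is named, and the injected lines are given only by their cachectic or non-cachectic class. A mention of LLC cells and 3 weeks in the extraction protocol matches none of the 62 samples.

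Mitochondria make ATP through an electron transport chain whose complexes are built from subunits of 2 genomes. The mitochondrial genome supplies core subunits of complex I (NADH dehydrogenase, the Nd genes), complex III (cytochrome b, mt-Cytb), complex IV (cytochrome c oxidase, the Co genes) and ATP synthase (mt-Atp6 and mt-Atp8). It also supplies the rRNAs and tRNAs with which mitochondria translate those messages. Both strands are copied as long precursors, from which tRNAs are cut out to release the messages between them. In white fat, adipocytes carry few mitochondria compared with the thermogenic adipocytes of brown and beige fat, in which Ucp1 uncouples respiration to make heat.

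The genes lie end to end on chromosome M (GRCm38, the build also called mm10, annotation GENCODE M21), with no introns. In that annotation 9 of the 37 lie on the minus strand, namely mt-Nd6 and 8 tRNAs. In the annotation 9 pairs of neighbours share bases. The 5 that involve a tRNA share 1 to 3 bases and mt-Atp6 and mt-Co3 share 1. The 3 longest overlaps, all between messages, are shown because levels of overlapping genes depend on how shared reads were assigned, and no source used here states this. The sequences are written 5′ to 3′, and capitals mark bases that belong to both genes of a pair. The first is the whole of mt-Atp8 (chrM:7766-7969, plus strand), followed by the start of mt-Atp6 (chrM:7927-8016, plus strand), with 43 bases in common.
mt-Atp8: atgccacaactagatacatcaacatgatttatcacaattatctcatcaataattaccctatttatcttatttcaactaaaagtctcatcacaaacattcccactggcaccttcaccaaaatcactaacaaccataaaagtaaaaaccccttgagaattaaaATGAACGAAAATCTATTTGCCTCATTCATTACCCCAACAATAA
mt-Atp6 start: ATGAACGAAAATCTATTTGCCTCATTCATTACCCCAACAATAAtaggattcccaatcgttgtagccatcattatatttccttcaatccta
The next pair lies on opposite strands, so that the 14 capitals of the end of mt-Nd5 (chrM:13506-13565, plus strand) are the reverse complement of those of the end of mt-Nd6 (chrM:13552-13611, minus strand).
mt-Nd5 end: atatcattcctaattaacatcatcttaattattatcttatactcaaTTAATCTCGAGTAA
mt-Nd6 end: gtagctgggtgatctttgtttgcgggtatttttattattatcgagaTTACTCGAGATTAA
The end of mt-Nd4l (chrM:10114-10173, plus strand) shares 7 bases with the start of mt-Nd4.
mt-Nd4l end: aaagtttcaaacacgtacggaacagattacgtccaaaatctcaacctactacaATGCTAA
As an example of the tRNAs, which are between 59 and 75 bases long, mt-Tk (lysine tRNA, chrM:7700-7764, plus strand) lies between mt-Co2 and mt-Atp8.
mt-Tk: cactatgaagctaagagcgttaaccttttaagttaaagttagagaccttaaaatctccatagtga

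The number of reads per library is unknown, so no counting error can be attached to a value. Between 11783 and 14470 genes reached 1 TPM in a library, no pair of libraries held identical values, and the highest correlation between a pair was 0.989. Adipocyte markers were abundant in all 62 libraries, with Adipoq, Plin1, Fabp4, Lpl and Cfd summing to between 29958 and 83716 TPM, as the tissue label says. Thermogenic markers (Ucp1 and 6 others) summed to between 37.6 and 3947 TPM, skeletal muscle markers to between 2.09 and 3726 TPM, and urothelial markers to between 1.92 and 501.6 TPM.

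All 13 protein-coding genes were above 0 in all 62 libraries. The 12S rRNA mt-Rnr1, the 16S rRNA mt-Rnr2 and all 22 tRNAs were listed at 0 in all 62. The mitochondrially encoded share of TPM was therefore entirely the 13 messages, with 0% from rRNA and 0% from tRNA. Such zeros were not particular to mitochondria: all 5915 genes annotated as snRNA, snoRNA, miRNA, misc_RNA, nuclear rRNA or scaRNA were also listed at 0 in all libraries. A listed 0 for these classes is therefore not read here as absence of the RNA.

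The 13 messages ranked among the most abundant of the tissue. By mean TPM, 12 of them were among the 20 highest genes of the table, and mt-Nd6 ranked 267. Complex IV messages led: mt-Co1, the catalytic subunit, averaged 66614 ± 13272 TPM (SD, n = 62), mt-Co2 47003 ± 8930 and mt-Co3 46921 ± 9325. Of the ATP synthase messages, mt-Atp6, which forms part of the proton path, averaged 43013 ± 8675 TPM and mt-Atp8, a small stator subunit, 11864 ± 5735. Cytochrome b of complex III followed with 29646 ± 5983 TPM for mt-Cytb. The complex I messages were lower. mt-Nd1 averaged 20662 ± 4731 TPM, mt-Nd4 17436 ± 3882, mt-Nd2 11986 ± 3458, mt-Nd4l 11070 ± 2734, mt-Nd5 7252 ± 1497 and mt-Nd3 7063 ± 2026, all membrane subunits of the proton pump. The only message of the minus strand, mt-Nd6, also a membrane subunit of complex I, averaged 350.2 ± 164.2 TPM. In this order the neighbours mt-Co2, mt-Co3 and mt-Atp6 lay within 1 SD of each other, as did mt-Nd1 and mt-Nd4, then mt-Nd2, mt-Atp8 and mt-Nd4l, and last mt-Nd5 and mt-Nd3.

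**Figure D1:**
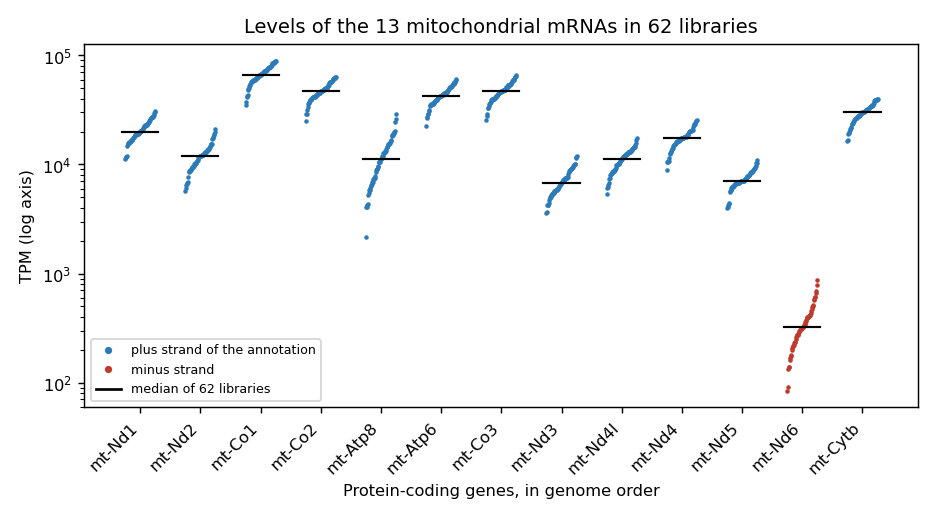
TPM (log axis) of the 13 mitochondrial mRNAs in genome order, 1 point per library sorted within a gene, with the median of 62 libraries as a black line. mt-Nd6, on the minus strand, lies far below the others, and mt-Atp8 and mt-Nd6 have the longest vertical spread.

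Messages that overlap in the genome did not have equal levels per length. mt-Atp8 and mt-Atp6, known to share a mature mRNA, differed in mean TPM by the values above, and their log2 levels correlated with r = 0.49 over the 62 libraries. The other such pair, mt-Nd4l and mt-Nd4, correlated with r = 0.78. By contrast mt-Nd1 and mt-Co2 correlated with r = 0.96, and mt-Co1 and mt-Co3 with r = 0.94. These correlations describe libraries that share the TPM scale and carry no test.

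mt-Atp8 and mt-Nd6 varied most between libraries. mt-Atp8 ranged from 2145 TPM in NCAC replicate 4 at 2 weeks to 28860 TPM in NCAC replicate 1 of the same group, a 13.4-fold range. mt-Nd6 ranged 10.4-fold, from 83.8 TPM in that same replicate 4 to 873.7 TPM in NCAC replicate 1 at 6 weeks. The other 11 messages ranged between 2.42-fold (mt-Cytb) and 3.65-fold (mt-Nd2). Measured against the geometric mean of the 13 in each library, which removes the common level, the SD of the log2 value was 0.59 for mt-Atp8 and 0.53 for mt-Nd6, and from 0.11 (mt-Atp6) to 0.24 (mt-Nd5) for the others.

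Those 2 messages moved together across libraries although they lie on opposite strands. The log2 ratio of mt-Atp8 to mt-Atp6 and that of mt-Nd6 to mt-Nd5 correlated with r = 0.68 (Spearman's rho 0.61) over 62 libraries, and r was 0.58 without the 2 libraries farthest from the median of the first ratio. The correlation was 0.55 among the 20 Con libraries, 0.76 among the 20 NCAC libraries, 0.62 among the 22 CAC libraries, and 0.60 after group means were removed. The pair was chosen after these values were seen, so it is a description of these libraries, which also share their preparation, and no p is given.

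The mitochondrially encoded share of TPM ranged from 17.2% (Con replicate 5 at 6 weeks) to 44.45% (NCAC replicate 1 at 2 weeks), with a median of 32.0%. In Con tissue it averaged 34.1% ± 6.48 (SD, n = 5) at 2 weeks, 32.5% ± 5.18 at 4 weeks, 33.1% ± 10.7 at 6 weeks and 33.3% ± 8.49 at 8 weeks. In NCAC tissue it averaged 32.9% ± 6.77, 29.6% ± 5.72, 37.04% ± 5.50 and 31.4% ± 3.56 at the same weeks. In CAC tissue it averaged 30.7% ± 9.15, 34.6% ± 4.37, 28.7% ± 2.11 and 28.5% ± 4.96 (n = 7). The share thus had no steady trend with the week in any arm, and in 11 of the 12 comparisons between arms the difference was smaller than the pooled SD.

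The exception was CAC against NCAC at 6 weeks. CAC libraries stood at 25.9%, 28.6%, 29.6%, 27.9% and 31.6%, and NCAC libraries at 42.4%, 33.2%, 29.4%, 40.5% and 39.7%. CAC was lower by 8.30 percentage points against a pooled SD of 4.16, and 3 of 5 CAC libraries lay below all 5 NCAC libraries. Con libraries of that week, at 37.2%, 41.9%, 41.9%, 27.4% and 17.2%, overlapped both groups. In bulk tissue, fewer cells of a type and less RNA per cell cannot be told apart.

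**Figure D2:**
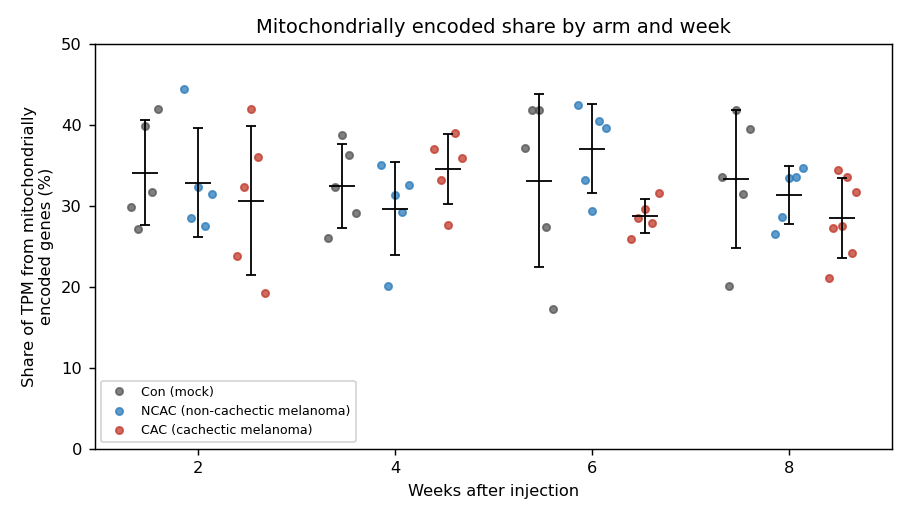
Share of TPM from mitochondrially encoded genes (%) against weeks after injection, 1 point per library, with the mean and SD of each group in black. At 6 weeks the CAC libraries sit between 25.9% and 31.6% and the NCAC libraries between 29.4% and 42.4%, whereas Con libraries reach from 17.2% to 41.9%.

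Single messages were tested on log2(TPM + 1) with limma across all genes that averaged 0.5 TPM or more over the 62 libraries, using the libraries of the 2 groups compared, and called at a Benjamini-Hochberg adjusted p under 0.05. All 13 messages passed that level filter, and the 24 rRNAs and tRNAs did not. In CAC against NCAC at 6 weeks 3 of the 13 messages fell and 0 rose, where 5.78% of the 14576 genes tested were called, 0.844% of them lower and 4.94% higher. At an unadjusted p under 0.05 the counts were 7 of 13 messages and 26.2% of all genes. All 13 differences were negative, with a median log2 difference of -0.48 beside 0.13 over all genes tested. The 3 called messages, mt-Nd3, mt-Nd4l and mt-Nd2, encode subunits of complex I.

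In the 5 CAC libraries mt-Nd3 was at 5260, 5510, 5797, 4715 and 6343 TPM, and in the 5 NCAC libraries at 11543, 8525, 7247, 11694 and 8917 TPM. Every CAC library was below every NCAC library, and the level was reduced, with a log2 difference of -0.78 (SE 0.16, limma adjusted p = 0.0231). mt-Nd3 is the subunit whose loop changes position between the active and resting forms of complex I. Con libraries, at 8125, 10085, 8960, 5067 and 3671 TPM, overlapped both arms.

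For mt-Nd4l the CAC libraries were at 7355, 10121, 9983, 8068 and 9207 TPM and the NCAC libraries at 16730, 13020, 12753, 11943 and 15082 TPM. The groups did not overlap, and the level fell by 0.64 (SE 0.15, limma adjusted p = 0.0337). For mt-Nd2 the CAC libraries were at 9068, 10226, 9564, 6572 and 10329 TPM and the NCAC libraries at 17929, 11891, 11974, 15450 and 17312 TPM. Here too no library of one arm reached the other, and the level fell by 0.70 (SE 0.18, limma adjusted p = 0.0451). The Con libraries overlapped both arms for both genes, from 6473 to 13716 TPM for mt-Nd4l and from 6862 to 21020 TPM for mt-Nd2.

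The other messages of this comparison did not pass. mt-Nd4 and mt-Cytb were also lower in 5 of 5 CAC libraries than in every NCAC library. Their log2 differences were -0.51 (SE 0.15) and -0.48 (SE 0.14), with limma adjusted p of 0.0646 and 0.0642. For this and every other comparison, the share of all genes without overlap was not computed. Such separation is therefore not read as particular to these messages. mt-Nd6 had the largest difference, -0.94 (SE 0.27, limma adjusted p = 0.0622), with 252.1, 299.7, 507.6, 262.5 and 433.2 TPM in CAC and 873.7, 687.1, 359.4, 792.1 and 668.5 TPM in NCAC. Its groups overlapped, since NCAC replicate 3 lay within the CAC range. mt-Atp8 differed by -0.61 (SE 0.20, limma adjusted p = 0.0890). The other 6 had smaller differences, of -0.17 for mt-Nd5, -0.20 for mt-Co2, -0.25 for mt-Co1, -0.27 for mt-Nd1, -0.32 for mt-Atp6 and -0.33 for mt-Co3.

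**Figure D3:**
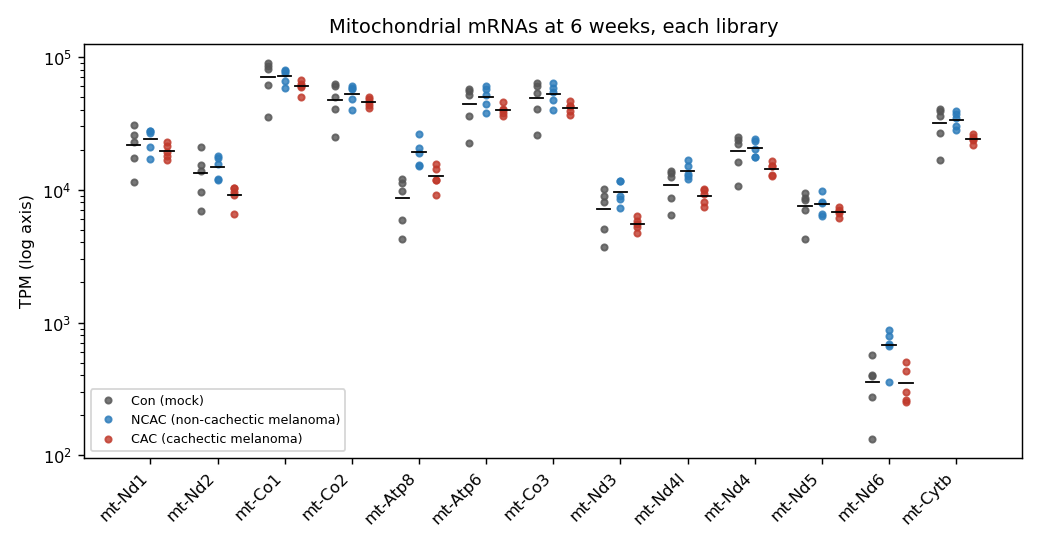
TPM (log axis) of each mitochondrial mRNA in the 15 libraries at 6 weeks, by arm, with group means as short lines. CAC points lie below all NCAC points for mt-Nd2, mt-Nd3, mt-Nd4l, mt-Nd4 and mt-Cytb, while Con points overlap both arms for these genes. The share of all genes whose CAC and NCAC points do not overlap was not computed.

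The calls depended on single libraries. Without CAC replicate 1, 2 or 4, or NCAC replicate 2 or 4, 0 messages were called. Without CAC replicate 5 or NCAC replicate 1 the count was 1, without CAC replicate 3 it was 3, without NCAC replicate 5 it was 2, and without NCAC replicate 3 it was 6. All 13 differences kept their negative sign in the 19 alternatives run, among them both other scalings, where the median of the 13 was -0.66 (nuclear genes alone scaled to 1000000) and -0.64 (median-ratio size factors) while the median of all genes moved to -0.03 and -0.01.

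Markers of other cells are given for these 2 groups beside the messages, with no test. Urothelial markers (Upk1a, Upk1b, Upk2, Upk3a and Krt20) summed to between 5.46 and 501.6 TPM in CAC and between 6.77 and 36.0 TPM in NCAC, with Upk2 at 0 in 31 of the 62 libraries. Skeletal muscle markers, 7 genes, reached from 37.4 to 825.2 TPM in CAC and from 7.53 to 127 TPM in NCAC, with Myh4 at 0 in 20 of the 62 libraries. Their part in the differences was not tested. An added fit left out the 3 CAC libraries above 100 TPM of urothelial markers, which leaves 2 CAC libraries. All 13 differences were still negative. In that fit 0 messages and 62 of all genes were called, beside 3 messages and 843 genes with every library of these groups. Adipocyte markers summed to between 58735 and 83716 TPM in CAC and between 48432 and 77253 TPM in NCAC. Thermogenic markers overlapped, with 791.7 to 3013 TPM in CAC and 617.8 to 3077 TPM in NCAC, and so did macrophage markers, with 86.3 to 165.9 and 64.9 to 245.5 TPM. Erythroid markers averaged 2026 ± 1311 TPM in CAC and 6014 ± 4004 TPM in NCAC, lymph node markers 3.40 ± 1.41 and 11.2 ± 8.81 TPM, and fibroblast and progenitor markers 1534 ± 575.1 and 2182 ± 851.8 TPM. Mammary epithelial markers (Krt8, Krt18, Epcam and Csn3) averaged 83.3 ± 83.4 TPM in CAC and 16.0 ± 13.6 TPM in NCAC. Csn3 was at 0 in 56 of the 62 libraries, where the sum comes from Krt8, Krt18 and Epcam alone. The sum is therefore not read as presence of mammary tissue.

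In the other 11 comparisons between arms 0 of 13 messages were called by limma. Of all genes, the share called for CAC against Con was 0.00686% at 2 weeks, 0.00686% at 4 weeks, 0.357% at 6 weeks and 3.07% at 8 weeks. For CAC against NCAC it was 0.528% at 8 weeks and 0% at both earlier weeks, and for NCAC against Con it was 0% throughout. At an unadjusted p under 0.05 the messages numbered 2, 0, 0 and 0 for CAC against Con in order of week, beside 3.45%, 2.78%, 9.45% and 20.6% of all genes. For NCAC against Con they numbered 0, 0, 2 and 0, beside 1.61%, 0.789%, 1.41% and 1.24%. For CAC against NCAC they numbered 0 at 2 weeks (3.62% of all genes), 0 at 4 weeks (4.45%) and 1 at 8 weeks (16.1%).

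Against Con, CAC messages were mostly lower without passing. At 8 weeks all 13 log2 differences were negative, from -0.45 (mt-Nd4l) to -0.05 (mt-Nd6), with a median of -0.19 beside -0.08 over all genes and a lowest limma adjusted p of 0.281. With median-ratio size factors 3 of those 13 turned positive. At 6 weeks 10 of 13 were negative (median -0.16), with mt-Nd2 lowest at -0.45 and mt-Atp8 highest at 0.62. At 2 weeks 10 of 13 were negative (median -0.18), and at 4 weeks 6 of 13 (median 0.01).

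The largest of those differences belonged to mt-Atp8 at 2 weeks. It averaged 12440 ± 5361 TPM (n = 5) in CAC and 5600 ± 1291 TPM (n = 5) in Con, with 5 of 5 CAC libraries above all Con libraries and a log2 difference of 1.07 (SE 0.32, limma adjusted p = 0.999). mt-Nd5 went the other way, with 5790 ± 1501 against 8482 ± 1749 TPM and a log2 difference of -0.57 (SE 0.25, limma adjusted p = 0.999). Neither passed once adjusted over all genes tested. Con tissue itself had unequal mt-Atp8 levels by week, with means of 5600 TPM at 2 weeks, 14729 at 4, 8623 at 6 and 10148 at 8 weeks. Between 8 and 2 weeks in Con, mt-Atp8 differed by 0.84 and mt-Nd6 by 0.76 (log2) with 0 of 13 messages and 0% of all genes called by limma, and 2 messages and 3.87% of all genes at an unadjusted p under 0.05.

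NCAC tissue at 6 weeks had all 13 messages above Con on average, with a median log2 difference of 0.20 beside -0.16 over all genes tested, and this sign was the same under both other scalings. mt-Atp8 averaged 19179 ± 4611 TPM in NCAC and 8623 ± 3382 TPM in Con, with 5 of 5 NCAC libraries above all Con libraries and a log2 difference of 1.23 (SE 0.31, limma adjusted p = 0.948). mt-Nd6 averaged 676.1 ± 195.6 against 355.1 ± 161.7 TPM, with 4 of 5 above all Con libraries and a difference of 1.02 (SE 0.37, limma adjusted p = 0.948). At 6 weeks, then, NCAC tissue was the arm with the highest mean for each of the 13 messages. The comparisons of CAC and of Con with NCAC share those NCAC libraries.

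At 4 weeks the order of the tumour arms was the other way, with 12 of 13 messages higher in CAC than in NCAC on average (median log2 difference 0.23), and mt-Nd6 lower at -0.46. At 8 weeks 11 of 13 were lower in CAC (median -0.22). There mt-Nd4l was lower in 7 of 7 CAC libraries than in every NCAC library, with 8229 ± 1439 TPM (n = 7) against 11945 ± 1074 TPM (n = 5), a log2 difference of -0.56 (SE 0.16, limma adjusted p = 0.113). Differences between the weeks were fitted as interactions, a choice made after seeing the data. The CAC minus NCAC difference at 6 weeks was not distinguishable from that at 2, 4 or 8 weeks for any of the 13, where 0.604%, 0% and 0% of all genes were called. The lowest limma adjusted p was 0.393, for mt-Nd3 at 6 against 4 weeks (log2 -0.98, SE 0.31). Unadjusted p was under 0.05 for 0, 8 and 1 of the 13 messages, beside 9.66%, 9.23% and 3.31% of all genes. In the planned test of the CAC effect at 8 against 2 weeks 0 of 13 messages were called, with 0.0549% of all genes called. There 1 message, mt-Atp8 at -1.18, and 9.34% of all genes had an unadjusted p under 0.05.

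**Figure D4:**
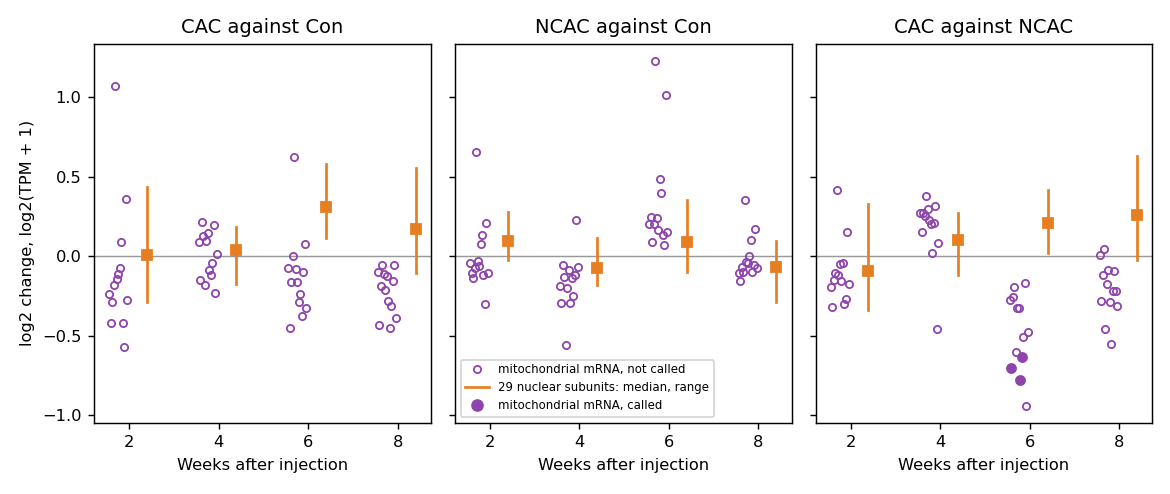
Log2 differences of the 13 mitochondrial mRNAs (purple circles, filled where called) and the median with the lowest and highest value of 29 nuclear subunits of the same complexes (orange) against weeks after injection, in 3 pairs of arms. The filled circles are mt-Nd2, mt-Nd3 and mt-Nd4l in CAC against NCAC at 6 weeks, where all 13 circles lie below 0 and the nuclear median is 0.21.

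Ratios between messages of the same library do not depend on the library's TPM scale. The ratios of mt-Cytb to mt-Co1 (the last message of the plus strand against an earlier one), mt-Nd1 to mt-Co1 and mt-Nd6 to mt-Nd5 (opposite strands) were tested in the 12 comparisons between arms. These were 36 exact two-sided permutation tests, and 0 passed after adjustment. The smallest p that 5 against 5 libraries allow is 0.00794, which 3 of the 36 reached, each with an adjusted p of 0.0952. Groups of 5 that do not overlap at all get no smaller p, so such a comparison could not pass on its own. That 0 passed is therefore not read as absence of a difference.

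The ratio of mt-Cytb to mt-Co1 had lower means in CAC than in both other arms at 4, 6 and 8 weeks, without passing. At 4 weeks its log2 value averaged -1.28 ± 0.17 in CAC, -1.08 ± 0.13 in Con and -1.09 ± 0.09 in NCAC (n = 5 each), and the groups overlapped (exact permutation p = 0.0635 against Con and 0.0714 against NCAC, adjusted p = 0.286 for each). At 6 weeks its log2 value was -1.21, -1.20, -1.37, -1.34 and -1.41 in CAC, -1.17, -1.13, -1.17, -1.19 and -1.08 in Con, and -1.01, -1.12, -1.05, -1.12 and -1.12 in NCAC. All 5 CAC libraries were below all Con and all NCAC libraries, by 0.16 and 0.22 on average (exact permutation p = 0.00794 and adjusted p = 0.0952 for each). At 8 weeks the 7 CAC libraries ranged from -1.50 to -1.07 with a mean of -1.31 ± 0.15 (SD, n = 7), against -1.11 ± 0.06 in Con and -1.12 ± 0.02 in NCAC (n = 5 each). There 6 of 7 CAC libraries were below all Con and all NCAC libraries, and CAC replicate 1 was above all NCAC libraries (exact permutation p = 0.0189 against Con and 0.0164 against NCAC, adjusted p = 0.136 for each). Without that replicate both comparisons at 8 weeks passed, with an adjusted p of 0.039 (exact permutation tests). Each passed in only 1 of 15 alternatives. With 1 library left out, the adjusted permutation p reached 0.255 against Con and 0.208 against NCAC. The alternative that paired libraries by replicate number allows no p below 0.0625. It could not pass whatever the values, and is not read as evidence against a difference. At 2 weeks the arms overlapped, with means of -1.15 in CAC, -1.16 in Con and -1.13 in NCAC.

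The third ratio to reach the smallest p was mt-Nd6 to mt-Nd5 at 2 weeks. Its log2 value averaged -4.46 ± 0.11 in CAC and -5.39 ± 0.39 in Con (n = 5 each), with 5 of 5 CAC libraries above all Con libraries (exact permutation p = 0.00794, adjusted p = 0.0952). At 4, 6 and 8 weeks this difference was -0.43, 0.18 and 0.10, and the groups overlapped. mt-Nd1 to mt-Co1 differed by at most 0.13 in any of the 12 comparisons, and its lowest adjusted p was 0.441 (exact permutation tests).

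**Figure D5:**
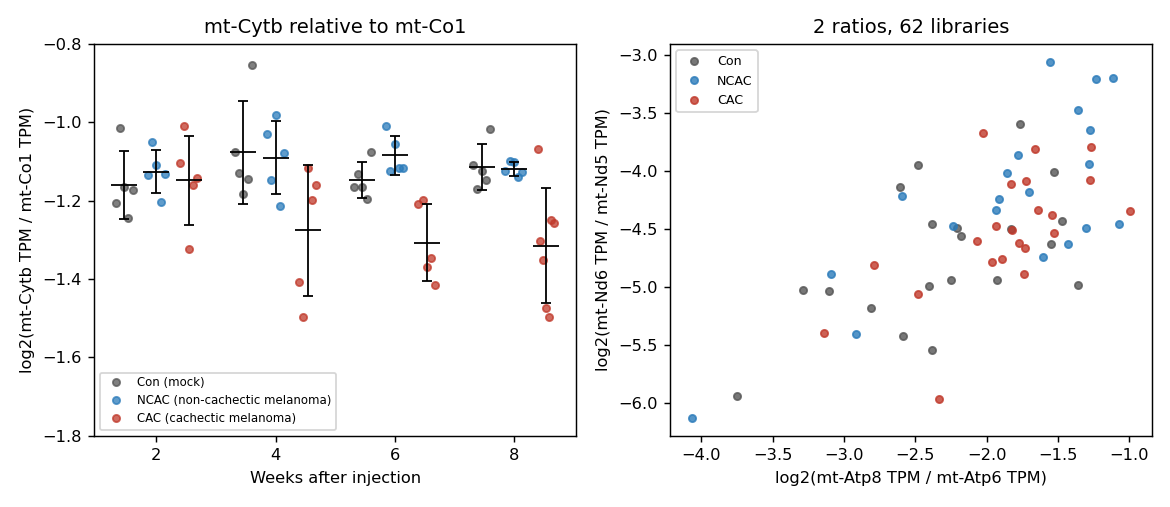
Left, log2 of mt-Cytb TPM over mt-Co1 TPM against weeks after injection, 1 point per library with group mean and SD in black: all 5 CAC points at 6 weeks and 6 of 7 at 8 weeks lie below the Con and NCAC points of the same week. Right, log2 of mt-Nd6 over mt-Nd5 against log2 of mt-Atp8 over mt-Atp6 for 62 libraries coloured by arm, with an r of 0.68.

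The complexes also need subunits from nuclear genes, and 29 of these, for complexes I, III, IV and ATP synthase, were listed for comparison. They took 0.903% ± 0.121 of TPM (SD, n = 62), so the mitochondrial messages of a library summed to between 23.6 and 49.4 times theirs. Across the 62 libraries the mitochondrial sum per nuclear TPM and the mean log2 level of the 29 genes correlated with r = 0.80, and with r = 0.88 after group means were removed, a description of libraries that share their cell makeup. Of the 29, 0 were called in any comparison, where the share of all genes called ran from 0% to 5.78%.

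The balance between the 2 genomes' messages is given as values with no test, because it is a sum over the messages. At 6 weeks the mitochondrial sum was 23.6, 29.9, 28.0, 26.3 and 27.8 times the nuclear sum in CAC, 44.4, 36.1, 40.2, 45.3 and 41.0 times in NCAC, and 43.2, 40.0, 44.7, 34.1 and 27.7 times in Con. CAC and NCAC libraries did not overlap, and only Con replicate 5 reached the CAC range. At 8 weeks it was 29.3 ± 3.56 times in CAC (n = 7), 39.4 ± 8.85 in Con and 39.0 ± 4.59 in NCAC (n = 5 each), and the ranges overlapped. In CAC against NCAC at 6 weeks all 29 nuclear genes had positive log2 differences as deposited (median 0.21, lowest limma adjusted p = 0.0730), but 19 of 29 when nuclear genes alone were scaled to 1000000 (median 0.03) and 20 of 29 with median-ratio size factors (median 0.05). Against Con at 6 weeks all 29 were positive under these 3 scalings (medians 0.31, 0.20 and 0.33).

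Nuclear genes that copy, transcribe, process or stabilise mitochondrial RNA formed a list of 43 symbols, of which 40 were found and tested. In CAC against Con 0 were called at 2 and 4 weeks, and 1 of 40 rose at 6 weeks, where 0.357% of all genes were called, and at 8 weeks. In CAC against NCAC 2 of 40 rose at 6 weeks, near the 4.94% of all genes that rose there, and 0 were called at the other weeks. The 1 against Con at 8 weeks is likewise near the 3.07% of all genes called. With median-ratio size factors the counts called at 8 weeks were 3 of 40 against Con and 2 of 40 against NCAC. With nuclear genes alone scaled they were 2 of 40 against Con and 0 of 40 against NCAC. The share of all genes called is not given here for these rescaled fits at 8 weeks. Their counts are therefore not read as particular to this list. On the deposited scale Hsd17b10 was called in each of the 3 comparisons of arms that held a call. It is a dehydrogenase that is also a subunit of the RNase P that cuts tRNAs from the mitochondrial precursor. Its 6-week libraries were at 515.8, 323.3, 332.2, 398 and 400.6 TPM in CAC, 209.8, 188, 189.2, 212.6 and 138.4 TPM in Con, and 146.1, 154.2, 129.4, 165.6 and 200 TPM in NCAC. All CAC libraries were above all others, with log2 differences of 1.06 against Con (SE 0.17, limma adjusted p = 0.0282) and 1.30 against NCAC (SE 0.16, limma adjusted p = 0.00186). At 8 weeks it averaged 570 ± 354.3 TPM in CAC (n = 7) and 143.6 ± 14.8 TPM in Con (n = 5), a difference of 1.75 (SE 0.37, limma adjusted p = 0.0269). Those CAC libraries were at 1059, 375, 177, 411.2, 414.7, 1083 and 470.8 TPM. NCAC libraries of that week, at 166.6, 177.9, 487, 153 and 160.6 TPM, overlapped them. The call against NCAC at 6 weeks held in 19 of 19 alternatives. The call against Con at 6 weeks was lost under both other scalings (limma adjusted p = 0.0736 and 0.102) and without CAC replicate 1, 4 or 5 or Con replicate 1, 3 or 4 (up to 0.104). That at 8 weeks was lost with no filter on low values (0.0531) and without CAC replicate 4 or 7 or Con replicate 2 or 5 (up to 0.0604).

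The second gene to rise in CAC against NCAC at 6 weeks was Ptcd1, which binds mitochondrial leucine tRNAs, with 20.5 ± 2.03 against 14.9 ± 1.70 TPM and a log2 difference of 0.44 (SE 0.11, limma adjusted p = 0.0470). It is named after its values were seen, and it lost the call under both other scalings, where 1 of the 40 genes, Hsd17b10, was called. The core transcription machinery did not pass in any comparison of CAC at 6 weeks. Tfam, which packages the genome and starts transcription, averaged 18.0 ± 1.41 TPM in CAC, 18.1 ± 1.92 in Con and 16.9 ± 1.43 in NCAC. Polrmt, the mitochondrial RNA polymerase, averaged 16.8 ± 3.29, 12.8 ± 1.69 and 11.6 ± 1.69 TPM, with a limma adjusted p of 0.0738 against NCAC. Lrpprc, which stabilises the messages, averaged 22.1 ± 3.38, 21.5 ± 4.06 and 21.3 ± 2.57 TPM.

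Among 11 regulators of mitochondrial biogenesis 10 were tested and 0 were called in any comparison, beside the same 0% to 5.78% of all genes. Ppargc1a, the coactivator that drives mitochondrial gene programmes, averaged 12.7 ± 7.69 TPM in CAC at 6 weeks, 5.43 ± 2.89 in Con and 5.56 ± 1.47 in NCAC, with limma adjusted p of 0.467 and 0.121. Ucp1 averaged 655 ± 580.2 TPM in CAC, 390.6 ± 740.1 in Con and 578.8 ± 486.6 in NCAC at 6 weeks, with an SD close to or above each mean.

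Across all 62 libraries the mitochondrial sum per nuclear TPM moved with the cell markers of the same libraries. On the scale of nuclear genes its log2 value correlated with adipocyte markers (r = 0.59, and 0.64 in Con, 0.31 in NCAC and 0.78 in CAC) and with thermogenic markers (r = 0.50, and 0.69, 0.75 and 0.23 in the same order). It correlated negatively with macrophage markers (r = -0.61, and -0.87, -0.55 and -0.43) and with fibroblast and progenitor markers (r = -0.52, and -0.77, -0.33 and -0.67). The mammary epithelial list, with Csn3 at 0 in 56 of the 62 libraries, also had negative values (r = -0.44, and -0.27, -0.44 and -0.56). For erythroid markers the sign differed by arm (r = -0.01 in all, -0.55 in Con, -0.44 in NCAC and 0.44 in CAC). Muscle (r = -0.03), urothelial (r = -0.26) and lymph node markers (r = 0.15) had smaller values. The part of the cell makeup in the values above was not tested.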

How the data were processed

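Per the labels' protocols, white adipose tissue went into Trizol, libraries came from Illumina's TruSeq stranded mRNA kit and the instrument was a NovaSeq. The genome build was mm10, per the submitters' processing notes. No aligner, counter, strand setting, annotation or read depth is stated (not given in the sources used here). TPM values were deposited by the authors for 47643 symbols, and each of the 62 libraries sums to 1000000. Nuclear copies of mitochondrial sequence may share reads with the genes described, and their treatment is likewise not stated.

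Symbols were matched to GENCODE M21 (45134 found), from whose transcripts the sequences were copied. Genes averaging 0.5 TPM or more were fitted as log2(TPM + 1), so fold changes of low genes are understated, with limma 3.58.1 in R 4.3.3 (trended, robust empirical Bayes) on the 2 groups compared. p-values were two-sided and adjusted over all genes tested. Ratios were tested by exact permutation over samples in scipy 1.17.1. The fits were tested on simulated data. Replicates are called biological in the protocol, without naming animals.

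The 13 messages, and from each nuclear list the called genes with the largest changes of CAC against Con, were to be named, with Tfam, Polrmt, Lrpprc, Ppargc1a and Ucp1 always. The 3 most abundant tRNAs could not be chosen, because all were listed at 0. The members, lists and rules were chosen with earlier results of these data known.

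Alternatives were other pseudocounts, filters, scalings, fits and leaving out each library.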

Additional observations from a re-analysis of the deposited data

Results flagged for a closer look

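Each of the 12 groups was searched for a library far from its others in 17 measures, which gave 204 sets of 5 or 7 values. Of these 4 stood out, where about 1 in 20 sets is set apart by chance. The sets share libraries and are not independent. The mitochondrially encoded share in NCAC replicate 1 at 2 weeks was 44.45% of TPM, with the nearest library of that group at 32.3%. mt-Atp8 in Con replicate 1 at 4 weeks was at 7479 TPM, with the nearest at 15289 TPM. In NCAC replicate 2 at 4 weeks both mt-Nd5, at 4434 TPM (nearest 6415 TPM), and mt-Cytb, at 19652 TPM (nearest 30401 TPM), were the lowest by a wide gap.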

How the results depend on the processing

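In 16 of 17 comparisons 0 messages were called in every alternative. For CAC against NCAC at 6 weeks 3 messages were called, beside 843 of all genes. With median-ratio size factors it was 1 message and 1002 genes, and with all 62 libraries in a single fit 0 and 555. Empirical Bayes without trend or robust prior gave 5 messages and 818 genes, and no filter on low values gave 2 and 550. Without libraries over 100 TPM of urothelial markers (added after seeing the data) it was 0 messages and 62 genes. With 1 library left out the count ran from 0 to 6, while the calls over all genes ran from 210 to 1682. The cause was not tested. The count of mt-Cytb to mt-Co1 comparisons passing ran from 0 to 2 when 1 library was left out. Over the 22 named results and their alternatives, a call was lost 46 times and gained 8 times, and 332 times a result, called or not, stayed on its side of the threshold, with no sign reversed. mt-Nd3 was called in 12 of 19 alternatives, mt-Nd4l in 9 and mt-Nd2 in 5. Group means of the share moved by less than 1 SD. Same-numbered replicates of different arms deviated together (r over 0.1) in 20 of 60 pairs and in all pairs of 0 of 12 comparisons, so the numbers were not taken to pair animals. With the replicate number as a block, 2 messages were called in CAC against NCAC at 6 weeks and 0 in the others, and the rise of Hsd17b10 against Con lost its call at 6 weeks (limma adjusted p = 0.187) and at 8 weeks (0.157). That fit kept only replicate numbers present in both groups. At 8 weeks it thus also left out CAC replicates 6 and 7, of which replicate 6 had the highest Hsd17b10 level, 1083 TPM. The ratio of mt-Rnr2 to mt-Co1 could not be computed, since mt-Rnr2 is listed at 0. Without depth, low levels such as mt-Nd6 carry an unknown counting error.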
